A study of Mus musculus with 12 samples.

Results

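Expression of 9 genes for checkpoint ligands, checkpoint receptors and costimulatory molecules was followed in bone marrow cells exposed to indole-3-propionic acid (IPA), a tryptophan metabolite made by gut bacteria. The genes were chosen by name, as the rows of the count table for *Cd274*, *Pdcd1lg2*, *Vsir*, *Havcr2*, *Lgals9*, *Cd80*, *Cd86*, *Cd40* and *Cd84*, 9 of the 54532 genes listed. Each exceeded 0.5 CPM (counts per 1000000 counted reads) in at least 2 of the 12 libraries, and all 9 were among the 14894 genes tested. Whole bone marrow of wild-type C57BL/6 mice was cultured for 5 days with GM-CSF and IL-6, cytokines that drive myeloid differentiation, and the cells were not sorted before RNA was taken. There were 4 cultures with vehicle (0.1% DMSO), 4 with 10 µM IPA and 4 with 50 µM IPA. The study's methods describe its C57BL/6 mice as female and young adult. The labels do not say whether the 4 libraries of a group came from separate animals, so p-values measure the spread between these libraries, which may be technical. The counts per library summed to between 20451312 and 28038612.

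T cells respond to antigen when a presenting cell also shows them costimulatory molecules, and the best known of these are CD80 and CD86, which bind CD28. The same cells carry ligands that restrain T cells, among them PD-L1 (*Cd274*) and PD-L2 (*Pdcd1lg2*), which bind PD-1, and VISTA (*Vsir*), which is abundant on myeloid cells. CD40 receives the signal of CD40 ligand on helper T cells, TIM-3 (*Havcr2*) is an inhibitory receptor with galectin-9 (*Lgals9*) as a reported ligand, and CD84 is a SLAM family receptor that binds itself on neighbouring cells.

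The sequence in front of the start site was read for the 4 genes that passed the test in any comparison, *Cd274*, *Cd80*, *Cd84* and *Havcr2*, and for *Pdcd1lg2*, the chromosomal neighbour of *Cd274*. *Cd274* (ENSMUSG00000016496) lies on chromosome 19 of GRCm38, from 29367455 to 29388095, and *Pdcd1lg2* (ENSMUSG00000016498) lies 22823 bases further on the same strand, from 29410919 to 29471161. The 250 bases before each start are those of RefSeq on GRCm38.p6, all on the plus strand, at chr19:29367188-29367437 for *Cd274*, chr19:29410669-29410918 for *Pdcd1lg2*, chr16:38458683-38458932 for *Cd80*, chr1:171839447-171839696 for *Cd84* and chr11:46454681-46454930 for *Havcr2*. They are shown because 3 of these genes rose at 50 µM and *Havcr2* fell from 10 to 50 µM, and capitals mark a match to any of 4 motifs searched on both strands.
Cd274: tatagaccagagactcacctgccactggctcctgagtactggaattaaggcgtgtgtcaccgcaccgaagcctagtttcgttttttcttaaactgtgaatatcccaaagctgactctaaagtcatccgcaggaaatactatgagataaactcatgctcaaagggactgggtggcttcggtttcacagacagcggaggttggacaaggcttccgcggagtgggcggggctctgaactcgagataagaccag
Pdcd1lg2: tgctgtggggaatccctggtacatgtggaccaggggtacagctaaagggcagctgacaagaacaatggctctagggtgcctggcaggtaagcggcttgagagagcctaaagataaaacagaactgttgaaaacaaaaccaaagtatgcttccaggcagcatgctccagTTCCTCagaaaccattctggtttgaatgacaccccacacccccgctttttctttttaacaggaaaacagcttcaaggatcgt
Cd80: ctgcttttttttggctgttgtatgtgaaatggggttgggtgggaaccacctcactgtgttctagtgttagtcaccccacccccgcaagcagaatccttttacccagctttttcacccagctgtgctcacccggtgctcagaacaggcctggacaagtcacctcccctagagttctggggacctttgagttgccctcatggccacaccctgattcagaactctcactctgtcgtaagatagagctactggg
Cd84: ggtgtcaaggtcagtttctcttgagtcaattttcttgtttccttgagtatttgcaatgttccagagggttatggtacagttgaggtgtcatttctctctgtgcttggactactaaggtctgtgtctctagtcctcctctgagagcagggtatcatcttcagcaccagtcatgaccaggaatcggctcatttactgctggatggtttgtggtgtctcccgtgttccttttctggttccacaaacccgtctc
Havcr2: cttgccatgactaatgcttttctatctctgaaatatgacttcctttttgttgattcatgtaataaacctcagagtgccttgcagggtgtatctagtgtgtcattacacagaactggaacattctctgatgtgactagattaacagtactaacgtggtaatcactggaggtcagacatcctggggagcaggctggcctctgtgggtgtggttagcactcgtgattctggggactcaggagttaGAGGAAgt
The motifs were the STAT motif TTCNNNGAA, an interferon-response motif of GAAANN followed by GAAA, a form of the NF-κB motif of GGGNN followed by TTTCC, and the PU.1 core GAGGAA. The windows of *Cd274*, *Cd80* and *Cd84* held none of them. The window of *Havcr2* held the PU.1 core from 8 to 3 bases before the start, and that of *Pdcd1lg2* held its reverse complement from 82 to 77 bases before the start. Among 32851 starts in the RefSeq table, 23.3% had the PU.1 core in the same window, 7.02% the STAT motif, 2.98% the interferon-response motif and 1.41% the NF-κB form. *Vsir* had no match, and *Lgals9* had 1 match to the interferon-response motif, 55 to 46 bases before the start, and 2 PU.1 cores. In all, 7 of the 9 genes were found in the table, the others being *Cd86* and *Cd40*. The *Cd80* window lies inside the longer span that GENCODE M21 gives the gene, chromosome 16 from 38455561 to 38496335.

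Levels differed widely between the 9 genes. Counts were divided by library size (TMM-normalized) and by the length of all exons of a gene, which gives CPM per kilobase. With vehicle, *Vsir* had the highest level per length, 100.8 ± 7.05 CPM per kilobase (SD, n = 4), followed by *Lgals9* at 69.8 ± 5.04 (SD, n = 4) and *Cd274* at 38.7 ± 5.97 (SD, n = 4). *Pdcd1lg2* at 25.3 ± 1.52 (SD, n = 4) and *Cd84* at 24.7 ± 1.71 (SD, n = 4) came next, and their ranges overlapped. *Cd86* stood at 12.9 ± 0.310 CPM per kilobase (SD, n = 4), above *Cd80* at 8.26 ± 1.31 (SD, n = 4). *Havcr2* at 1.78 ± 0.298 (SD, n = 4) and *Cd40* at 1.31 ± 0.341 (SD, n = 4) were the lowest and overlapped.

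**Figure D1:**
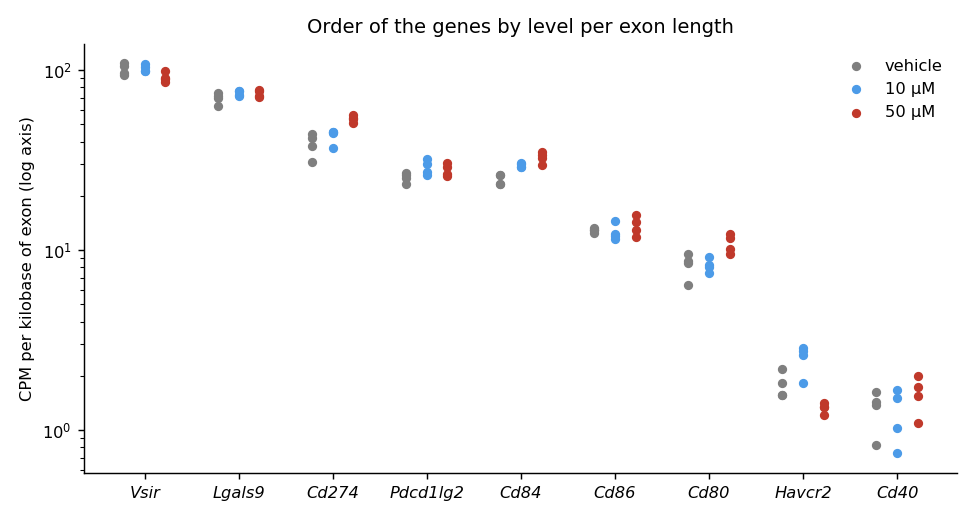
Levels of the 9 genes per exon length, in CPM per kilobase on a log axis, with a point for each of the 4 libraries with vehicle (grey), 10 µM IPA (blue) and 50 µM IPA (red). *Vsir*, *Lgals9* and *Cd274* hold the first 3 places at every dose, and *Havcr2* and *Cd40* lie lowest.

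At 10 µM, *Cd84* stood at 29.5 ± 0.726 CPM per kilobase (SD, n = 4) and *Pdcd1lg2* at 28.8 ± 2.73 (SD, n = 4), again with overlap, and every other neighbour in the order was separate. At 50 µM, 3 pairs of neighbours overlapped, *Cd84* with *Pdcd1lg2*, *Cd86* with *Cd80*, and *Cd40* with *Havcr2*. *Cd274* reached 53.5 ± 2.32 CPM per kilobase (SD, n = 4) there, and *Havcr2* stood last at 1.33 ± 0.0880 (SD, n = 4).

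At 50 µM, 3 of the 9 genes rose against vehicle, *Cd274*, *Cd80* and *Cd84*, and none fell at an adjusted p under 0.05. Against 10 µM, *Cd274* and *Cd80* rose and *Havcr2* fell. At 10 µM against vehicle, none of the 9 passed. The share of genes called was 33.3% of the 9 in each comparison with 50 µM, beside 13.5% of all genes tested at 50 µM against vehicle and 15.4% at 50 against 10 µM. It was 0.410% of all genes at 10 µM against vehicle. The 9 genes were chosen with earlier results of these data known, so these shares are a description only. The test was edgeR's quasi-likelihood test, with p adjusted over all 14894 genes by the Benjamini-Hochberg method. The median log2 fold change of the 9 genes was 0.09 at 10 µM and 0.15 at 50 µM against vehicle and 0.12 at 50 against 10 µM, and over all genes it was -0.01, 0.01 and 0.01. Each library enters more than 1 of these comparisons, so they are not independent. All calls among the 9 genes involve the group at 50 µM. The study reports slightly reduced cell viability after the same culture at this higher dose, which it describes as supraphysiological. For that reason the study centred its own RNA analysis on the lower dose. Whether lower viability had a part in the changes at 50 µM was not tested.

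**Figure D2:**
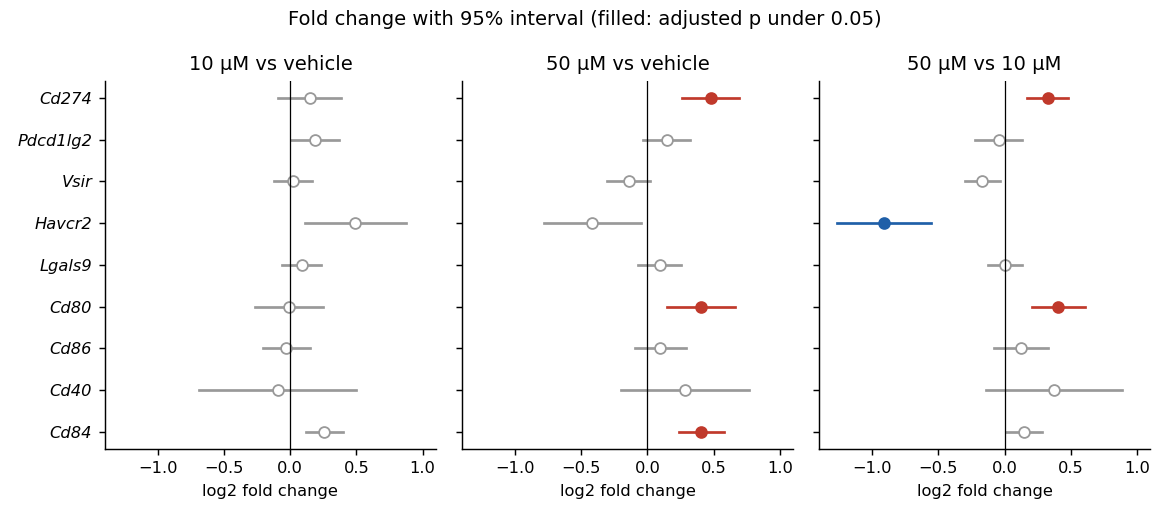
Log2 fold changes of the 9 genes in the 3 comparisons, with 95% intervals. Filled points have an adjusted p under 0.05 (red higher, blue lower in the first-named group), namely *Cd274*, *Cd80* and *Cd84* at 50 µM against vehicle, and *Cd274*, *Cd80* and *Havcr2* at 50 against 10 µM.

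*Cd274*, which encodes PD-L1, stood at 152, 161, 137 and 111 CPM in vehicle replicates 1 to 4. At 10 µM it stood at 134, 163, 163 and 161 CPM, and at 50 µM at 183, 196, 203 and 194 CPM. Every library at 50 µM lay above every other library, whereas vehicle and 10 µM overlapped. The log2 fold change at 50 µM against vehicle was 0.48 (standard error 0.10, adjusted p = 0.00655), a 1.39-fold rise with a 95% interval of 1.201 to 1.61. Against 10 µM it was 0.33 (standard error 0.07, adjusted p = 0.00623), 1.25-fold (1.13 to 1.39). At 10 µM against vehicle it was 0.15 (standard error 0.11, adjusted p = 0.809), and 0.05 without vehicle replicate 4. The value at 50 µM against vehicle was 0.38 without that library, the smallest of the 8 fits that left out 1 library. In a culture of mixed cells, more cells that carry a transcript and more RNA per cell cannot be told apart. *Cd274* shares 511 exon bases with *AC119228.1*, a transcript on the opposite strand, and whether reads were counted by strand was not stated.

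*Pdcd1lg2*, the gene of the other PD-1 ligand, stood between 45.6 and 52.5 CPM with vehicle, between 51.0 and 62.6 at 10 µM and between 50.3 and 59.9 at 50 µM. The 3 ranges overlapped. Against vehicle it changed by 0.19 ± 0.08 at 10 µM (log2, standard error, adjusted p = 0.529) and by 0.15 ± 0.08 at 50 µM (adjusted p = 0.272). At 50 against 10 µM it was -0.04, with a 95% interval from -0.22 to 0.13. Per exon length, the ratio of *Cd274* to *Pdcd1lg2* was 1.54 ± 0.291 with vehicle, 1.50 ± 0.251 at 10 µM and 1.93 ± 0.212 at 50 µM (SD, n = 4). The highest vehicle ratio, 1.91, exceeded the lowest at 50 µM, 1.75, so these groups overlapped, while no ratio at 10 µM exceeded 1.71.

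*Vsir*, the gene of VISTA, stood at 505 ± 35.4 CPM with vehicle, 513 ± 22.5 at 10 µM and 456 ± 28.5 at 50 µM (SD, n = 4). The ranges ran from 471 to 545, from 493 to 539 and from 427 to 495 CPM, so the highest library at 50 µM overlapped the others. The log2 fold change was -0.14 at 50 µM against vehicle (standard error 0.08, adjusted p = 0.245) and -0.17 against 10 µM (standard error 0.06, adjusted p = 0.0853). With DESeq2 the latter value had an adjusted p of 0.0486. At 10 µM against vehicle it was 0.02 (adjusted p = 0.970).

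*Cd80*, a ligand of CD28 and CTLA-4, stood at 32.0, 35.1, 31.5 and 23.7 CPM with vehicle and at 27.5, 30.4, 29.65 and 34.0 CPM at 10 µM. At 50 µM it stood at 35.0, 42.9, 45.2 and 37.5 CPM. All libraries at 50 µM lay above all at 10 µM, and the lowest of them lay just under the highest vehicle library. The log2 fold change was 0.40 against vehicle (standard error 0.12, adjusted p = 0.0403), 1.32-fold (1.11 to 1.58), and 0.41 against 10 µM (standard error 0.09, adjusted p = 0.00823), 1.33-fold (1.15 to 1.53). Leaving out 1 library at a time, the call against vehicle held in 3 of the 8 fits. It was lost without vehicle replicate 1 (adjusted p = 0.0781) or 3 (0.0837) and without 50 µM replicate 2 (0.128), 3 (0.126) or 4 (0.0655). The value against vehicle was smallest, 0.30, without vehicle replicate 4, where the call held. The call against 10 µM held in all 8 such fits.

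*Cd86*, whose protein shares its receptors with CD80, stood between 45.6 and 48.4 CPM with vehicle, 41.9 and 53.3 at 10 µM and 43.2 and 57.4 at 50 µM. Its 3 ranges overlapped, and its log2 fold change was -0.03 (95% interval -0.21 to 0.15, adjusted p = 0.961) at 10 µM and 0.10 (-0.10 to 0.29, adjusted p = 0.528) at 50 µM. The ratio of *Cd86* to *Cd80* per exon length was 1.59 ± 0.319 with vehicle, 1.55 ± 0.282 at 10 µM and 1.26 ± 0.0851 at 50 µM (SD, n = 4). *Cd40* stood at 4.88, 5.53, 4.66 and 2.82 CPM with vehicle, at 5.65, 5.13, 2.52 and 3.48 at 10 µM and at 6.79, 5.90, 5.24 and 3.74 at 50 µM. This gene had between 67 and 161 counts per library, and the groups overlapped. Its log2 fold change was 0.28 at 50 µM against vehicle, with a 95% interval from -0.20 to 0.76 (adjusted p = 0.452), an interval that also holds 0 and the values of *Cd80* and *Cd274*. It was 0.11 without vehicle replicate 4, 0.15 without 50 µM replicate 1 and 0.42 without 50 µM replicate 4.

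**Figure D3:**
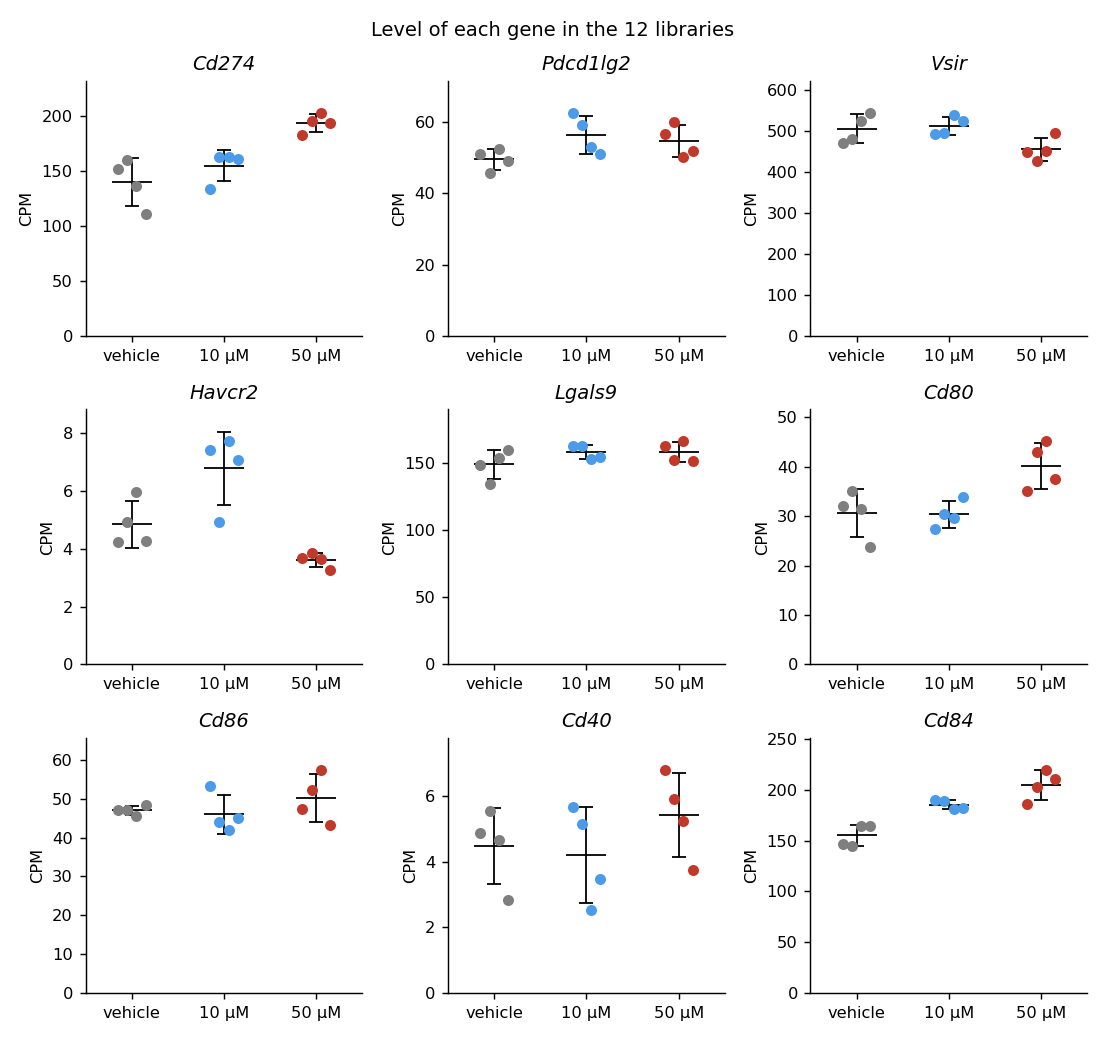
CPM of each of the 9 genes in the 12 libraries, with the mean and SD of each group of 4 as black lines. The libraries at 50 µM lie above the others for *Cd274* and below the others for *Havcr2*, and for *Cd84* the vehicle libraries lie below those of both doses.

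*Cd84* stood at 147, 145, 164 and 164 CPM with vehicle, at 189.7, 188, 181 and 182 CPM at 10 µM and at 186, 202, 219.6 and 211 CPM at 50 µM. All libraries of both doses lay above all vehicle libraries, and the doses overlapped. The log2 fold change at 50 µM was 0.41 (standard error 0.08, adjusted p = 0.00419), 1.33-fold (1.18 to 1.49), and the call held in all 8 fits that left out 1 library. At 10 µM it was 0.26 (standard error 0.06), with an unadjusted p of 0.00182 and an adjusted p of 0.148 in edgeR's test and an adjusted p of 0.0154 in DESeq2's. Over the alternatives this adjusted p ran up to 0.533, with a block for replicate numbers. *Cd84* was the only one of the 9 whose groups did not overlap at 10 µM, where 6.13% of all genes were separated in this way. Between the doses it differed by 0.15 on the log2 scale, higher at 50 µM (standard error 0.06, adjusted p = 0.136).

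*Havcr2*, which encodes TIM-3, stood at 4.24, 4.94, 5.96 and 4.25 CPM with vehicle, at 7.43, 4.94, 7.71 and 7.05 CPM at 10 µM and at 3.66, 3.85, 3.64 and 3.28 CPM at 50 µM. Every library at 50 µM lay below every library of the other groups, and 3 of the 4 libraries at 10 µM lay above all vehicle libraries. The gene had between 75 and 205 counts per library. It changed by -0.91 on the log2 scale at 50 against 10 µM (standard error 0.17, adjusted p = 0.00173), a fold of 0.532 with a 95% interval of 0.415 to 0.682, and the call held in all 8 fits that left out 1 library. Against vehicle, the value was 0.49 at 10 µM (standard error 0.17, adjusted p = 0.381) and -0.42 at 50 µM (standard error 0.17, adjusted p = 0.126), and neither passed. Of the 9 genes, 3 had groups that did not overlap at 50 µM against vehicle (*Cd274*, *Cd84* and *Havcr2*) and 3 at 50 against 10 µM (*Cd274*, *Cd80* and *Havcr2*), beside 20.0% and 20.3% of all genes. *Lgals9* stood at 149 ± 10.8 CPM with vehicle, 158 ± 5.38 at 10 µM and 158 ± 7.26 at 50 µM (SD, n = 4). Its log2 fold change was 0.09 at 10 µM (95% interval -0.06 to 0.23) and 0.09 at 50 µM (-0.07 to 0.26), and the groups overlapped. The ratio of *Lgals9* to *Havcr2* per exon length was 40.0 ± 7.38 with vehicle, 30.7 ± 7.55 at 10 µM and 56.1 ± 3.82 at 50 µM (SD, n = 4).

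At 10 µM against vehicle, where none of the 9 passed edgeR's test, 3 had an unadjusted p under 0.05 (*Cd84*, *Havcr2* and *Pdcd1lg2*), beside 1308 of all 14894 genes tested. DESeq2 called 1 of the 9, *Cd84*, beside 250 of all genes, and limma-voom called 0 of the 9 beside 63 of all genes. The values were positive for 6 genes and negative for 3.

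The cultures were checked with lists of marker genes, of which none was at 0 in all libraries. The summed level of 9 genes of mature dendritic cells, which display much CD80, CD86 and CD40, ran from 1110 to 1312 CPM with vehicle, from 1078 to 1455 at 10 µM and from 1527 to 2011 at 50 µM. Of the 7 tested, 5 rose and 1 fell at 50 µM against vehicle. *Cd83* rose by 0.95 (log2, adjusted p = 8.4e-05), *Ccr7* by 0.41 (adjusted p = 0.0135) and *Ccl22* by 0.86 (adjusted p = 0.000261), whereas *Marcksl1* fell by 0.29 (adjusted p = 0.0141). The most reads at 50 µM among these genes were those of *Ccl22* and *Ccl17*. Their means were 471 and 239 CPM with vehicle and 850 and 374 CPM at 50 µM. *Il4i1* and *Lamp3* had at most 6 and 8 counts per library and were not tested. The 6 B cell markers summed to between 51.9 and 68.2 CPM with vehicle, 65.8 and 84.7 at 10 µM and 86.0 and 125.0 at 50 µM, and all 6 rose at 50 µM against vehicle. B cells also carry CD80, CD86 and CD40.

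**Figure D4:**
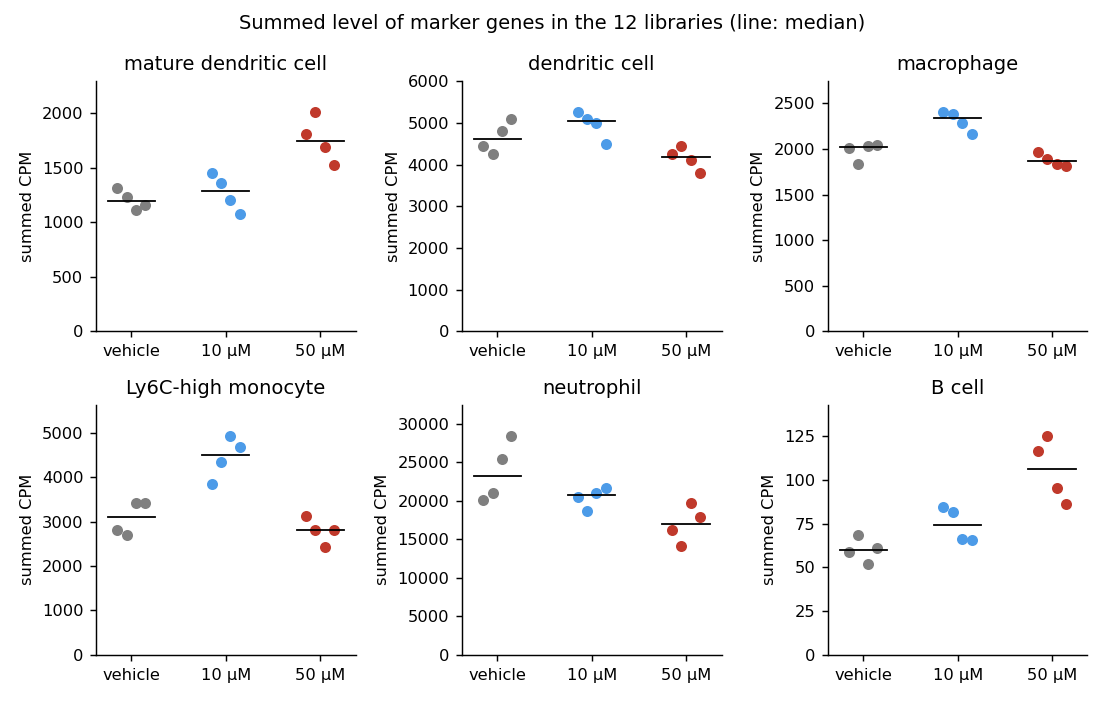
Summed CPM of marker genes for 6 cell types in the 12 libraries, with the median of each group as a line. Mature dendritic cell and B cell sums are higher at 50 µM than with vehicle without overlap, and the macrophage and Ly6C-high monocyte sums are highest at 10 µM. *Fn1* has the most reads in the Ly6C-high monocyte sum, and *Ly6c2* has its highest mean with vehicle.

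The 12 genes of dendritic cells in general summed to between 4248 and 5095 CPM with vehicle and between 3793 and 4451 at 50 µM, where 3 rose and 2 fell. The 10 macrophage markers summed to between 1835 and 2039 CPM with vehicle, 2168 and 2403 at 10 µM and 1814 and 1962 at 50 µM. Of these markers, 7 fell and 1 rose at 50 against 10 µM. The 6 genes of Ly6C-high monocytes ran from 2686 to 3424, from 3837 to 4924 and from 2417 to 3120 CPM, and 5 of them fell at 50 against 10 µM. *Fn1*, the gene with the most reads among them, had means of 1451, 2554 and 1696 CPM, whereas *Ly6c2* stood at 581, 535 and 445 CPM. By flow cytometry after the same culture, the study reports fewer Ly6C-high monocytes with IPA, in a dose-dependent manner. The summed RNA level is not a count of these cells. Neutrophil markers summed to between 20111 and 28428 CPM with vehicle and between 14116 and 19694 at 50 µM, where 6 of 10 fell. Mast cell and basophil markers (325 to 397 CPM with vehicle, 364 to 472 at 50 µM) had 1 rise among 6, and eosinophil markers (1008 to 1251 and 796 to 1071 CPM) had 1 among 5. T cell markers summed to between 4.61 and 11.3 CPM in all libraries, and *Cd3e* and *Cd3g* had at most 13 and 12 counts. Of the 6 T cell markers tested, 1 rose at 50 against 10 µM, *Lck*, by 1.04 (log2, adjusted p = 0.00984). It had between 25 and 73 counts per library. The part of these cell types in the values of the 9 genes was not tested.

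Beyond the 9, 82 genes of the same pathways were followed in 8 lists written from general knowledge, and 68 of them were tested. Of 9 other ligands of the B7 family and partners of VISTA, 4 were tested, with 1 rise at each dose against vehicle and 2 rises and 2 falls at 50 against 10 µM. *Vsig8*, a reported partner of VISTA, was the one that rose in all 3 comparisons, from 0.953 ± 0.0997 CPM with vehicle to 2.73 ± 0.506 at 10 µM and 5.08 ± 0.786 at 50 µM (SD, n = 4). Its log2 fold change at 50 µM was 2.42 against vehicle (standard error 0.21, adjusted p = 1.28e-05) and 0.91 against 10 µM (adjusted p = 0.00436). At 50 against 10 µM, *Icosl*, the ligand of ICOS, rose by 0.34 (adjusted p = 0.0163), *Cd276*, which encodes B7-H3, fell by 0.59 (adjusted p = 0.0163), and *Selplg*, whose product PSGL-1 binds VISTA at acidic pH, fell by 0.23 (adjusted p = 0.0184). *Vtcn1* had 0 counts in every library.

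Among 9 genes of the TIM family, TIM-3 ligands and galectins, 7 were tested, and at 50 µM against vehicle 1 rose and 1 fell. *Lgals3*, for galectin-3, rose by 0.32 (log2, adjusted p = 0.0338), and *Ceacam1*, for a reported TIM-3 ligand with a close paralog, fell by 0.56 (adjusted p = 0.00107). None passed in the other comparisons. *Lgals1* stood at 237 CPM with vehicle, 313 at 10 µM and 275 at 50 µM, without passing, and *Hmgb1*, an alarmin bound by TIM-3, at 158, 157 and 149 CPM. *Lgals4* (log2 0.76 at 50 µM, adjusted p = 0.186) and *Havcr1* (log2 0.76 at 10 µM, adjusted p = 0.761) had larger values at mean levels under 2 CPM in every group.

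CD84 belongs to the SLAM family of receptors. Of 11 other members and SAP adaptors, 9 were tested, and 2 rose and 3 fell at 50 µM against vehicle, with 1 rise and 4 falls against 10 µM and no call at 10 µM against vehicle. *Slamf1*, for the receptor CD150, rose from 4.52 ± 0.463 CPM with vehicle to 7.25 ± 1.13 at 50 µM (SD, n = 4), a log2 fold change of 0.69 (adjusted p = 0.00994). *Slamf8* rose by 0.55 against vehicle (adjusted p = 0.0210). *Cd244a*, for the receptor 2B4, fell by 0.79 (adjusted p = 0.00179) and *Ly9* fell by 0.44 (adjusted p = 0.0380) against vehicle. *Sh2d1b1*, for the adaptor EAT-2 that binds SLAM receptors, fell by 0.67 (adjusted p = 0.000479), and it has a close paralog in *Sh2d1b2*, which had at most 11 counts. *Slamf9* fell by 0.55 at 50 against 10 µM (adjusted p = 0.00433). *Cd84* therefore rose at 50 µM beside 2 relatives that rose and 2 receptors that fell, while *Cd48*, the ligand of 2B4, stood at 55.8, 58.6 and 49.7 CPM in the 3 groups and did not pass.

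Of 9 genes of TNF-superfamily costimulation, 6 were tested. *Tnfsf8*, for CD30 ligand, rose by 0.74 at 10 µM (adjusted p = 0.0174) and 1.26 at 50 µM (adjusted p = 5.82e-06) against vehicle, and *Tnfsf4*, for OX40 ligand, by 0.74 (adjusted p = 0.0394) and 0.89 (adjusted p = 0.000207). *Tnfsf14*, for LIGHT, stood at 29.4 CPM with vehicle and 29.9 at 10 µM and fell at 50 µM to 18.0 CPM, a log2 fold change of -0.69 against vehicle (adjusted p = 0.000485). *Tnfsf9*, for 4-1BB ligand, did not pass (log2 0.08 at 50 µM, adjusted p = 0.791), nor did *Tnfsf15* (log2 0.49, adjusted p = 0.186) or the receptor gene *Tnfrsf14* at 18.1, 17.5 and 19.2 CPM. *Cd40lg*, for the ligand of CD40, had at most 10 counts in any library.

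**Figure D5:**
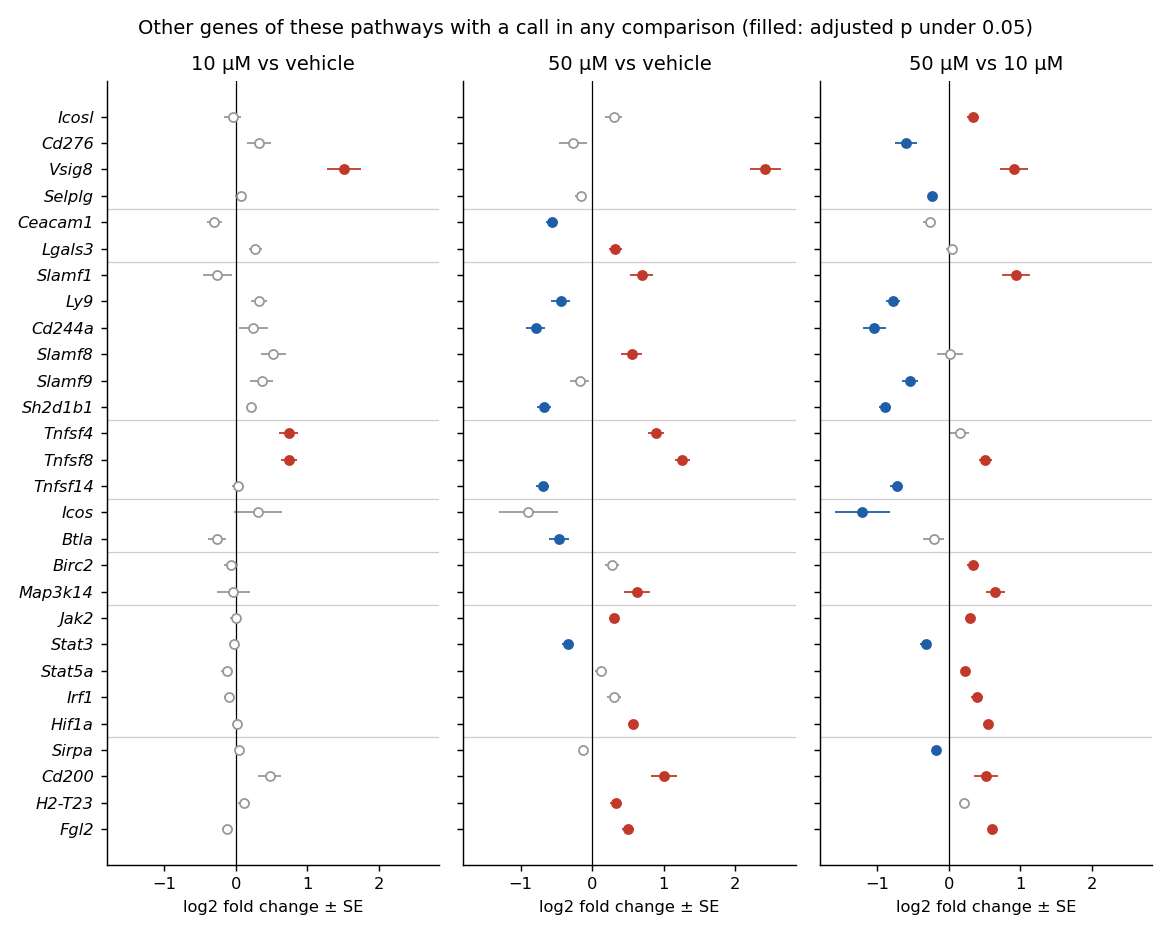
Log2 fold changes with standard errors of the 28 pathway genes that passed the test in any of the 3 comparisons, grouped by list (grey lines). Filled points have an adjusted p under 0.05 (red higher, blue lower). *Vsig8*, *Tnfsf4* and *Tnfsf8* are the 3 with filled points at 10 µM against vehicle.

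CD40 signals through TRAF adaptors to the noncanonical NF-κB pathway. Of 10 genes of this route, all tested, 1 rose at 50 µM against vehicle and 2 rose against 10 µM. *Map3k14*, for the kinase NIK, rose by 0.63 (adjusted p = 0.0395) and 0.65 (adjusted p = 0.00339), and *Birc2*, for the ubiquitin ligase cIAP1, rose by 0.34 against 10 µM (adjusted p = 0.0172). *Nfkb2*, for the pathway's transcription factor (134, 125 and 129 CPM), and *Birc3*, for cIAP2 (111, 106 and 119 CPM), did not pass in any comparison.

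Of 15 genes known to regulate PD-L1 transcription or stability, all tested, 0 passed at 10 µM against vehicle by edgeR's test, 2 rose and 1 fell at 50 µM against vehicle, and 4 rose and 1 fell against 10 µM. *Hif1a*, the oxygen-regulated transcription factor, rose from 255 CPM with vehicle to 376 CPM at 50 µM (log2 0.57, adjusted p = 0.000102). *Jak2*, the kinase of the GM-CSF and interferon gamma receptors, rose by 0.30 (adjusted p = 0.0154). *Stat3*, which IL-6 activates, fell by 0.34 (adjusted p = 0.0173). Against 10 µM, *Irf1* rose by 0.39 (adjusted p = 0.00655) and *Stat5a* by 0.23 (adjusted p = 0.0232). *Cmtm6*, whose product protects PD-L1 from degradation, stood at 310.0, 286 and 270.4 CPM (log2 -0.19 at 50 µM, adjusted p = 0.0816).

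Of 9 genes of nectins, the CD47 axis and other inhibitory ligands, 8 were tested, with 3 rises at 50 µM against vehicle. *Cd200*, for the ligand of an inhibitory myeloid receptor, rose from 3.44 ± 0.456 to 6.85 ± 1.31 CPM (SD, n = 4), a log2 fold change of 1.00 (adjusted p = 0.00234). *Fgl2* rose by 0.49 (adjusted p = 0.00197), and *H2-T23*, a nonclassical MHC gene with many relatives that may share its reads, by 0.33 (adjusted p = 0.0253). At 50 against 10 µM, 2 genes of this list rose and 1 fell. *Fgl2* rose by 0.61 (adjusted p = 1.18e-05) and *Cd200* by 0.52 (adjusted p = 0.0469), and *Sirpa*, the receptor of CD47, fell by 0.18 (adjusted p = 0.0355). *Cd47* stood at 495, 463 and 440 CPM without passing.

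Counts differed among the genes of receptors that T cells use to bind these ligands. *Pdcd1*, for PD-1, had between 7 and 38 counts per library, *Ctla4* between 0 and 10, *Cd28* between 26 and 117, *Lag3* between 11 and 46 and *Tigit* between 2 and 19. *Cd96* had between 12 and 52, *Cd226* between 79 and 207 and *Rgmb*, for a reported partner of PD-L2, between 118 and 227. Of 10 such genes, 9 were tested, and 1 passed in each comparison with 50 µM. *Btla*, which B cells and dendritic cells also carry, had between 186 and 425 counts, stood at 13.4 CPM with vehicle and fell by 0.46 at 50 µM (log2, adjusted p = 0.0433). *Icos*, with between 7 and 49 counts, fell by 1.21 at 50 against 10 µM (adjusted p = 0.0458).

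For each of the 4 genes that passed in any comparison, the genes with the most similar pattern were found by Pearson's correlation of log2 CPM over the 12 libraries. These values rest on 12 libraries in 3 dose groups, which the genes share, and are given as a description. *Cd274* was most like *4930512J16Rik* (r = 0.971), *Rnf19b* (r = 0.970) and *Tecpr1* (r = 0.969). *Cd80* was most like *Pla2g6* (r = 0.969), the interferon-induced *Mx1* (r = 0.960) and *Tspoap1* (r = 0.947). *Cd84* was most like the cathepsin L gene *Ctsl* (r = 0.960), the lectin gene *Clec10a* (r = 0.960) and *Rbms2* (r = 0.959). *Havcr2* was most like *Ly9*, a SLAM family gene (r = 0.902), the leukotriene receptor gene *Cysltr1* (r = 0.902) and *1110032A03Rik* (r = 0.901). *Cysltr1* stood at 42.0, 51.7 and 36.3 CPM in the 3 groups, and *Ctsl* at 379.7, 662 and 853 CPM.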

How the data were processed

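RNA-seq counts of 12 libraries, 4 per group, were analysed. After trimming with Atropos and alignment to mm10 by hisat2 2.2.1, the authors deposited raw counts per Ensembl gene from featureCounts 2.0.1, with no normalization, in a stranded mRNA protocol whose counting strand was not given in the sources used here. Genes over 0.5 CPM in 2 or more of the 12 libraries (14894) were tested with edgeR 4.0.16 (TMM, glmQLFit, glmQLFTest) in R 4.3.3 on the 8 libraries of each comparison, with Benjamini-Hochberg adjustment and a threshold of 0.05. The steps were tested on simulated data. CPM are TMM-normalized over the 12 libraries. Exon lengths and positions are from GENCODE M21 on GRCm38, and promoter sequences from RefSeq. Alternatives used DESeq2 1.42.0, limma-voom (limma 3.58.1), DESeq2's size factors, other filters, all libraries, a replicate block, and fits without each library. The 9 genes and all lists were chosen with earlier results of these data known. From the pathway lists, every gene that passed was named, and of the others at most 3 with the highest mean and 3 with the largest change; T cell receptors were given by counts, and marker lists by sums with a few examples chosen after their values were seen. The title of 10 µM replicate 3 repeats that of replicate 2, so its library name was used.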

Additional observations from a re-analysis of the deposited data

Results flagged for a closer look

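In the 27 groups of 4 libraries (9 genes at 3 doses), 1 library stood apart from the rest of its group by Dixon's test, for which chance alone gives about 1 in 20. *Cd274* was at 133.6 CPM in replicate 1 of the 10 µM group and between 161 and 163 in the other 3 libraries, a gap of 0.932 of the group's range. Without that library, the *Cd274* call at 50 against 10 µM held, as it did in all 8 fits that left out 1 library.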

How the results depend on the processing

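The calls of *Cd274* in both comparisons with 50 µM, of *Cd84* at 50 µM against vehicle, and of *Havcr2* and *Cd80* at 50 against 10 µM held under DESeq2, limma-voom, DESeq2's size factors, no filter, a minimum of 10 counts per library, all 12 libraries in the fit, the replicate block and each fit without 1 library. The call of *Cd80* at 50 µM against vehicle held in the first 7 and was lost in 5 of the 8 fits without 1 library, so that 2 to 3 of the 9 genes were called there. At 10 µM, DESeq2 called 1 of the 9 genes where edgeR called 0.

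Over all genes, 61 were called at 10 µM against vehicle, against 250 with DESeq2, 150 with no filter, 118 with all 12 libraries, 3 with the replicate block and 4 (without 10 µM replicate 2) to 122 (without vehicle replicate 4) without 1 library. At 50 µM against vehicle, 2010 were called, against 2554 with DESeq2, 2450 with all 12 libraries, 1313 without 50 µM replicate 2, and 1248 (without vehicle replicate 3) to 2689 (without vehicle replicate 4) over the fits without 1 library. Correlations of deviations did not show a clear pairing of the libraries by replicate number. Between libraries of the same number they ran from -0.24 to 0.14, and not every library was closest to its own number. Neutrophil marker sums were nevertheless lower in replicates 1 and 2 than in 3 and 4 of each group. Mature dendritic cell sums were higher there. For flow cytometry after this culture the study used a repeated-measures test. Whether libraries of the same number belong together is therefore not settled. The replicate block changed no call among the 9 genes.

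Values near 0 changed sign without 1 library, none of them called. At 10 µM against vehicle, the log2 fold change of *Vsir* ran from -0.0107 to 0.0584, that of *Cd80* from -0.115 to 0.0629, that of *Cd40* from -0.281 to 0.0902 and that of *Cd86* from -0.110 to 0.0124. At 50 against 10 µM, *Pdcd1lg2* ran from -0.0908 to 0.0143 and *Lgals9* from -0.0170 to 0.0258. The cause was not tested. *Havcr2* and *Cd40* had the fewest reads of the 9 genes, at most 205 and 161 counts per library.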
